A study of Rattus norvegicus and Mus musculus with 9 samples.

Results

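Splicing regulators of 10 gene families were followed in embryonic stem (ES) cells of rat and mouse and in embryonic fibroblasts of the rat. The members are all genes whose single symbol in the platform annotation begins with Srsf, Hnrnp, Mbnl, Rbfox, Celf, Ptbp, Nova, Khdrbs, Sf3a or Sf3b. There were 54 members among 14506 rat genes and 56 among 19938 mouse genes, and 50 members were in both tables. A gene with several probe sets was represented by the one with the highest mean signal. The rat ES cells (strain DA) were cultured in 3I medium, and the rat embryonic fibroblasts (strain DA) in GMEM with 10% FBS. Mouse ES cells of strain C57/BL6 were grown in the same serum medium with LIF, and their feeder cells were taken off before RNA extraction, a step not mentioned for the rat ES cells. Each group had 3 arrays. Nothing in the labels says that these were separate cultures, so p-values measure only the spread between arrays, which may be technical. Cell type and medium differed together between the rat groups and cannot be told apart.

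Pre-mRNA splicing removes introns and joins exons, and RNA-binding proteins decide which exons of a transcript are kept. SR proteins (the Srsf genes) mostly promote the use of an exon, whereas hnRNP and PTB proteins often repress it, and the SF3A and SF3B complexes are parts of the U2 particle that binds the branch point. MBNL, RBFOX, CELF, NOVA and the KH-domain proteins encoded by Khdrbs genes set cell-type-specific exon choice, and MBNL proteins are known to counter the exon choices typical of ES cells. The arrays gave 1 signal per probe set for total transcript level, so no exon choice was measured here.

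The cell labels were first checked against marker genes. All 8 measured pluripotency markers of 10 listed exceeded the fibroblast level by 2-fold or more, and 11 of 12 fibroblast markers were reduced in rat ES cells by as much, both by limma at a Benjamini-Hochberg adjusted p under 0.05. In the mouse ES cells the same 8 markers were ranked as percentiles among the symbols found in both species' tables. Pou5f1, Sox2, Nanog, Esrrb, Lin28a and Tfcp2l1 stood between 85.2 and 99.5, but Klf4 at 60.7 and Dppa3 at 49.3. Mean log2 levels of the fibroblast markers ran from 7.31 to 7.69 on the rat ES arrays, lowest on array 1 and highest on array 3, against 11.3 on each fibroblast array. On the log2 scale the collagen gene Col1a1 read 10.15 ± 0.423 (SD, n = 3) in the rat ES samples against 13.89 ± 0.049 for fibroblasts. The part of this signal in the results below was not tested.

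Most splicing regulators were moderately higher in rat ES cells than in fibroblasts, and few differed strongly. At an adjusted p under 0.05 with no fold threshold, limma found 35 of the 54 members higher in rat ES cells and 6 lower, while 13 did not pass. By the same rule 30.9% of all genes were higher and 25.5% lower. The median log2 difference of the members was 0.42 and that of all genes -0.00069. Signals of both groups did not overlap in 46 members, or 85.2%, against 61.5% of all genes. With a change of at least 2-fold also required, 8 members were called, 4 higher and 4 lower. That is 14.8% of members against 20.7% of all genes, of which 10.6% were higher and 10.1% lower, so strong changes made up a similar or smaller share here.

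**Figure D1:**
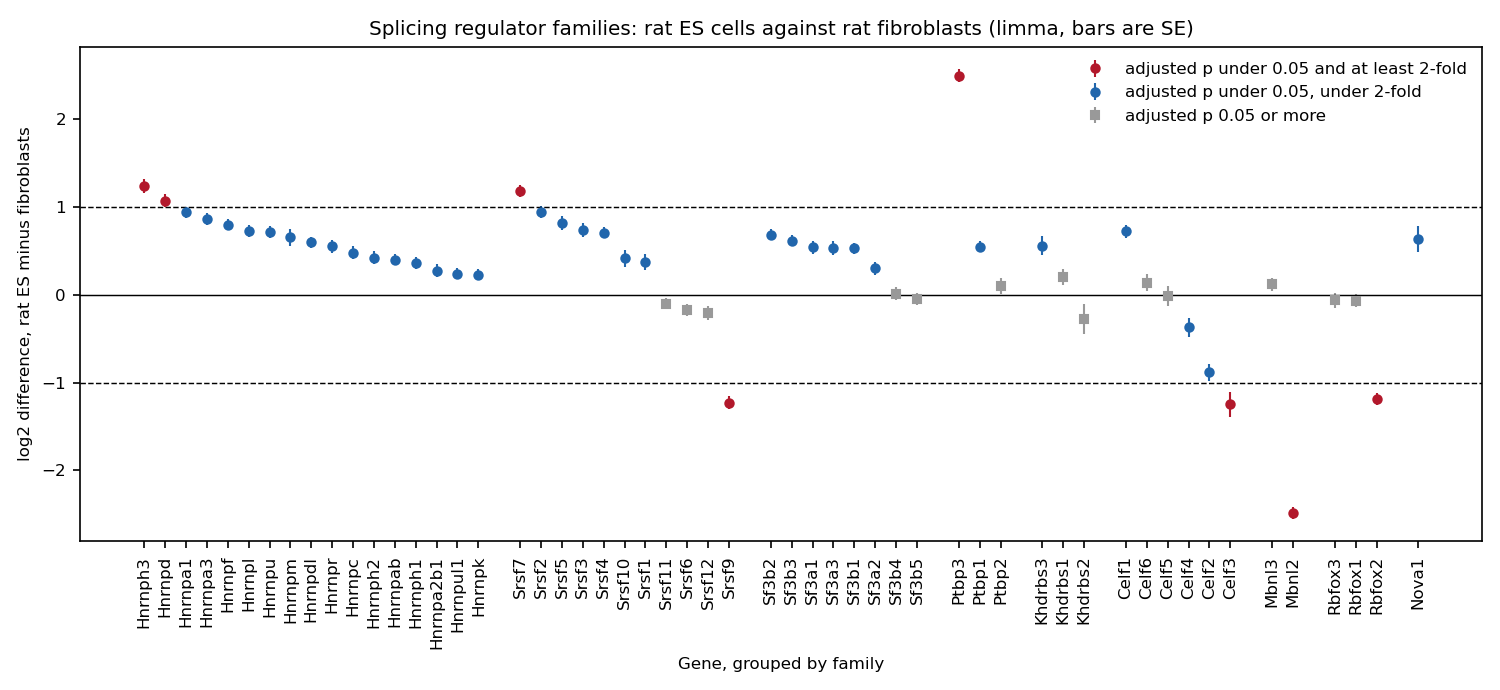
Log2 difference between rat ES cells and rat fibroblasts for the 54 splicing regulators, grouped by family and sorted within it, with the limma SE as bars and dashed lines at 2-fold (red, called at 2-fold; blue, adjusted p under 0.05 only; grey, neither). All 17 hnRNP genes lie above 0, Ptbp3 is highest at 2.50 and Mbnl2 lowest at -2.48.

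Expression level bears on these shares. Among the 7253 genes whose mean over the rat arrays was at or above the median, 48% were higher in rat ES cells at an adjusted p under 0.05, and 31.8% were called at least 2-fold changed in either direction. Of the 43 members at or above that level, 34 were higher (79.1%), 3 were lower, and 7 (16.3%) were called at 2-fold. Non-overlap of the groups was nearly as common among all genes at that level, 86.5%, as among these members, 93.0%. Both groups of Khdrbs2, Mbnl3, Nova1, Rbfox1, Rbfox3 and Srsf12 lay below the medians of the arrays (5.71 to 5.74 on the log2 scale), where a silent gene and an unresponsive probe set cannot be told apart.

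**Figure D2:**
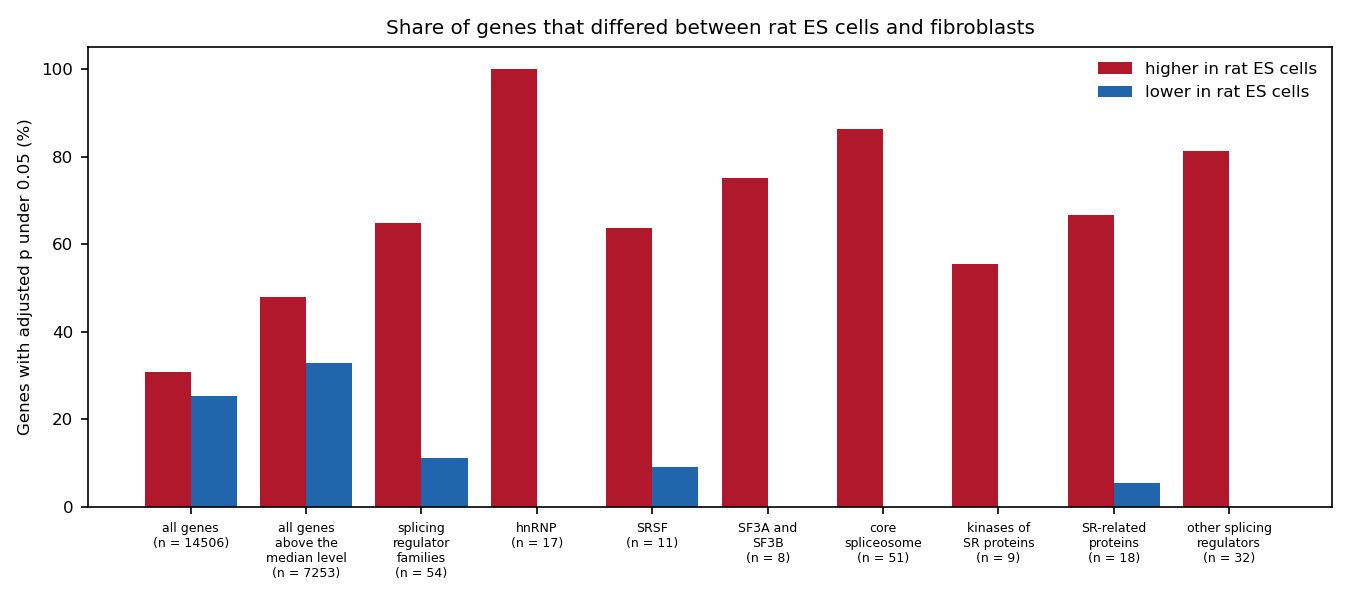
Percent of genes with a limma adjusted p under 0.05, higher (red) or lower (blue) in rat ES cells, for all genes, for genes at or above the median level, for splicing regulator families and for 4 lists of other splicing genes; n is the number of genes. All genes split 30.9% to 25.5%, whereas the splicing regulators split 64.8% to 11.1%.

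The PTB family held the largest increase. Ptbp3, a paralog of the polypyrimidine tract-binding protein first known from blood-forming cells, had log2 signals of 12.14, 12.02 and 12.01 on the rat ES arrays and 9.60, 9.58 and 9.49 on the fibroblast arrays. The groups were far apart and each was tight. The difference of 2.50 (SE 0.07), 5.64-fold, had a limma adjusted p of 2.14e-08. Ptbp1, which represses many neuronal and muscle exons in non-neural cells, read 11.13, 11.13 and 11.12 in rat ES cells and 10.63, 10.55 and 10.56 in fibroblasts. It was thus higher on every ES array, but only by 0.55 (SE 0.06, limma adjusted p = 7.74e-05). Ptbp2, the neuronal paralog that Ptbp1 holds down, averaged 7.88 ± 0.107 (SD, n = 3) on the rat ES arrays and 7.78 ± 0.105 on the fibroblast arrays. The arrays overlapped, and the difference of 0.10 (SE 0.09) did not pass (limma adjusted p = 0.363).

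The Mbnl family held the largest decrease. Mbnl2, a muscleblind protein that shifts exons towards the choices of differentiated cells, had log2 signals of 7.15, 7.23 and 7.26 on the rat ES arrays against 9.66, 9.73 and 9.70 on the fibroblast arrays. No ES array came near any fibroblast array. It fell by 2.48 on the log2 scale (SE 0.07, limma adjusted p = 1.62e-08), 5.59-fold, and remained above the array medians in rat ES cells. Mbnl3 was between 5.46 and 5.50 in rat ES cells and between 5.24 and 5.46 in fibroblasts. It lay below the array medians on all 6 arrays and did not pass (difference 0.12, limma adjusted p = 0.225). Mbnl1 had no rat row with a single symbol and was not analysed in the rat.

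The other 3 strong decreases were in 3 different families. Rbfox2, whose protein binds UGCAUG and is the Rbfox member of most non-neural tissues, read 8.21, 8.06 and 8.10 in rat ES cells and 9.33, 9.31 and 9.31 in fibroblasts. The fibroblast arrays were nearly identical, and the gene fell by 1.19 (SE 0.07, limma adjusted p = 9.95e-07). Srsf9, an SR protein, read 8.04, 7.94 and 7.98 in rat ES cells against 9.12, 9.23 and 9.31 in fibroblasts. Its difference was -1.23 (SE 0.07, limma adjusted p = 1.40e-06), the largest decrease among the SR protein genes. Celf3, a mainly neural CELF protein, read 5.66, 5.74 and 5.27 in rat ES cells and 6.98, 6.62 and 6.81 in fibroblasts. The groups did not overlap, but the rat ES mean of 5.55 lay below the array medians, so the size of the difference of -1.25 (SE 0.14, limma adjusted p = 6.91e-05) is uncertain.

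Some markers of other cell types were also lower. Of 11 measured neural markers, 4 were called lower in rat ES cells (Map2, Ncam1, Nes and Dcx) and Stmn2 was called higher. Tubb3 was higher by 0.58, under 2-fold (limma adjusted p = 2.33e-04), and 5 did not pass. The median log2 difference was -0.07. The mean level of the list ran from 5.69 to 5.77 on the rat ES arrays and from 6.30 to 6.38 on the fibroblast arrays, and Snap25, Neurod1, Pax6 and Gfap stayed under the medians of the arrays throughout. The muscle list of 12 genes had 2 called lower, Acta1 and Tnnc1, and its mean level was 5.40 to 5.43 in rat ES cells and 6.03 to 6.10 in fibroblasts, with Myod1, Myog, Des and Ttn below the array medians in both. In that list 8 of 12 did not pass and the median log2 difference was -0.19, so a few genes carried both list means. The primitive endoderm list of 8 genes had 5 called lower and 1 called higher, and its mean level was 6.55 to 6.71 in rat ES cells against 8.10 to 8.18 in fibroblasts. The part of these markers in the results for Mbnl2, Rbfox2 and Celf3 was not tested.

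**Figure D3:**
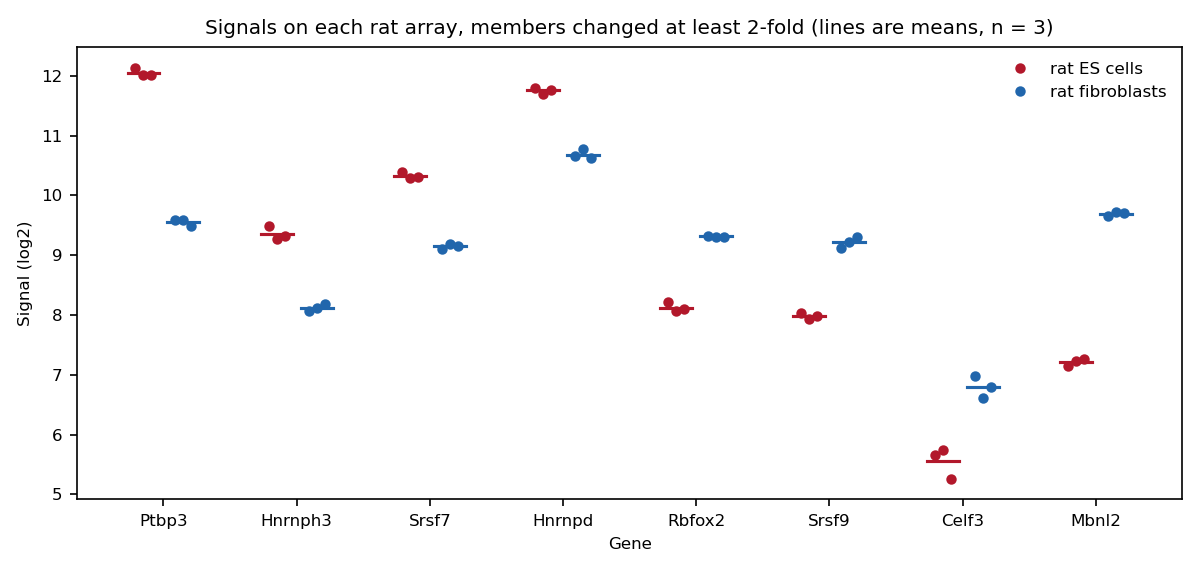
Log2 signal on each of the 3 rat ES arrays (red) and 3 fibroblast arrays (blue) for the 8 splicing regulators changed at least 2-fold; horizontal lines are group means. The groups are separate for every gene, with Ptbp3 at 12.05 against 9.56 and Mbnl2 at 7.21 against 9.70.

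The hnRNP genes, taken by an Hnrnp symbol only, moved as a block, by small amounts. All 17 members were higher in rat ES cells at an adjusted p under 0.05 and none overlapped between groups, with log2 differences from 0.23 to 1.24 and a median of 0.60. Among all genes at or above the median level, where these genes lie, 48% were higher by that rule and 86.5% did not overlap, so the non-overlap adds little. Under quantile normalization 15 of 17 passed, with Hnrnpab and Hnrnpk lost, and all 17 differences stayed above 0. Hnrnph3, a member of the class that binds G-rich runs, had the largest change, at 9.48, 9.28 and 9.32 in rat ES cells and 8.07, 8.13 and 8.18 in fibroblasts (difference 1.24, SE 0.08, limma adjusted p = 1.74e-06). Hnrnpd, also called AUF1, which binds AU-rich elements and affects mRNA decay, read 11.80, 11.70 and 11.76 against 10.65, 10.77 and 10.62. Its difference of 1.07 (SE 0.07, limma adjusted p = 2.48e-06) sat close to the 2-fold line and was 0.90 after quantile normalization.

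The other 15 hnRNP genes stayed under 2-fold. Hnrnpa1, the best-known repressor of exons in the family, came closest with a difference of 0.94 (12.67, 12.61 and 12.61 in rat ES cells, 11.71, 11.70 and 11.66 in fibroblasts). Hnrnpa3 followed at 0.86 and Hnrnpf, which binds G-runs, at 0.80. Rodent genomes hold many near-identical copies of these genes, and the annotation lists 3 probe sets for Hnrnpa1 and 8 for Hnrnpa3, so the contribution of each copy is uncertain. The probe sets nevertheless gave similar differences, 0.94 to 1.00 for Hnrnpa1 and 0.78 to 0.87 for Hnrnpa3. Hnrnpl (0.73), which binds CA repeats, and Hnrnpu (0.72), a nuclear scaffold protein, lay in the middle of the family.

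The smallest hnRNP differences were in Hnrnpk (0.23), which binds C-rich RNA, Hnrnpul1 (0.24) and Hnrnpa2b1 (0.27), a partner of Hnrnpa1 in the core hnRNP particle. Hnrnpk read 12.25, 12.30 and 12.20 in rat ES cells and 12.04, 12.00 and 12.03 in fibroblasts. That separation was small but complete, and a second Hnrnpk probe set gave 0.23 as well. The second probe set of Hnrnpa2b1 differed by 0.06 only, and with probe sets averaged Hnrnpa2b1 no longer passed. Without rat ES array 2, Hnrnpk did not pass, and without fibroblast array 3, Hnrnpa2b1 did not.

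SR protein genes were split. Of 11 members, 7 were higher in rat ES cells (63.6%), 1 was lower (9.1%) and 3 did not pass, with a median of 0.41. Among all genes at or above the median level, where 10 of these members lie, 48% were higher and 32.9% lower by that rule. Srsf7, an SR protein with a zinc knuckle that also takes part in mRNA export, led with 10.40, 10.30 and 10.30 in rat ES cells against 9.11, 9.18 and 9.16 in fibroblasts (difference 1.18, SE 0.07, limma adjusted p = 8.73e-07). Every ES array was above every fibroblast array. Srsf2 (0.95), the classical marker of nuclear speckles, missed the 2-fold line narrowly, with 11.21, 11.16 and 11.15 against 10.22, 10.17 and 10.29. Srsf5 (0.82), Srsf3 (0.74), Srsf4 (0.71), Srsf10 (0.41) and Srsf1 (0.37) passed below 2-fold. Srsf1, the founding member, was between 8.33 and 8.54 in rat ES cells and between 7.95 and 8.18 in fibroblasts.

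Srsf11 (-0.10), Srsf6 (-0.17) and Srsf12 (-0.21) had lower signals on all 3 rat ES arrays than on any fibroblast array but did not pass, at limma adjusted p = 0.235, 0.0540 and 0.0511. All 3 passed after quantile normalization, which brought the family to 7 higher and 4 lower. Without rat ES array 1 or without fibroblast array 2, Srsf12 passed, and Srsf6 passed as lower with either filter on level and with limma's trend and robust settings. Both groups of Srsf12 lay near 4 on the log2 scale, far below the array medians.

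The U2 particle genes followed the common pattern. Of 8 Sf3a and Sf3b genes, 6 were higher at an adjusted p under 0.05, none was lower and none reached 2-fold. These 75% stand against 48% of all genes at or above the median level, where all 8 lie. Sf3b2 differed by 0.68, Sf3b3 by 0.62, the SF3A scaffold gene Sf3a1 by 0.54 and Sf3a3 by 0.54. Sf3b1, whose protein clamps the branch point, read 10.53, 10.61 and 10.51 in rat ES cells against 10.02, 10.02 and 10.02 in fibroblasts (difference 0.53, SE 0.06, limma adjusted p = 1.11e-04). Sf3a2 (0.30) passed but not after quantile normalization. The small subunit genes Sf3b4 (0.01) and Sf3b5 (-0.04) did not pass, and their groups overlapped.

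CELF proteins bind GU-rich RNA, and their genes went in both directions. Celf1, the broadly expressed member, was higher in rat ES cells at 10.05, 10.01 and 10.00 against 9.27, 9.42 and 9.20 (difference 0.72, SE 0.08, limma adjusted p = 4.48e-05). Celf2, prominent in brain, heart and lymphocytes, fell by 0.88 (5.57, 5.50 and 5.60 against 6.54, 6.53 and 6.24, limma adjusted p = 4.81e-05), and Celf4 fell by 0.37 (limma adjusted p = 0.0170). The rat ES signal of Celf2 lay below the array medians. Celf5 (-0.02) and Celf6 (0.14) overlapped between groups and did not pass.

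In the Khdrbs family, Khdrbs3 was higher by 0.56 (7.52, 7.65 and 7.70 against 7.26, 6.87 and 7.05, limma adjusted p = 0.00182). Khdrbs1, which encodes Sam68, differed by 0.21 and did not pass (limma adjusted p = 0.0866), nor did Khdrbs2 (-0.27). Without fibroblast array 1, with the filter at the median level or with trend and robust settings, Khdrbs1 passed. Nova1, a neuronal regulator, differed by 0.64 (limma adjusted p = 0.00482), with 5.19, 5.41 and 5.78 on the rat ES arrays and 4.88, 4.91 and 4.70 on the fibroblast arrays. All 6 signals of Nova1 were near or below the array medians, so its size is uncertain. Rbfox1 (-0.07) and Rbfox3 (-0.06), the neuronal partners of Rbfox2, overlapped between groups.

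Promoters of Srsf7, Srsf9 and Mbnl2 are shown because these 2 SR protein genes changed in opposite directions and Mbnl2 had the largest decrease. The sequences run 5′ to 3′ over 300 bases around the start, most of them before it, from RefSeq on GRCr8, and Mbnl2 has 2 listed starts. Capitals mark matches on either strand to the motifs searched, which were the GC box GGGCGG, the CCAAT box, the E-box CACGTG of Myc and Max, the ETS core CCGGAAG and the TATA box TATAAA.
Srsf7, chr6:20563802-20564101, plus strand: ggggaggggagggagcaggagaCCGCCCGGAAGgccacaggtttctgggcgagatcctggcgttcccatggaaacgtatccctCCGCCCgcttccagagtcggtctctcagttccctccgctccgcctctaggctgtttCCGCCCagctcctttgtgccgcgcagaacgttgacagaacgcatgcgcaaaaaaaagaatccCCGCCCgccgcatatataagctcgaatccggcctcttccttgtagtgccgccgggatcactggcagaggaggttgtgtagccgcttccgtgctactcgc
Srsf9, chr12:46945098-46945397, minus strand: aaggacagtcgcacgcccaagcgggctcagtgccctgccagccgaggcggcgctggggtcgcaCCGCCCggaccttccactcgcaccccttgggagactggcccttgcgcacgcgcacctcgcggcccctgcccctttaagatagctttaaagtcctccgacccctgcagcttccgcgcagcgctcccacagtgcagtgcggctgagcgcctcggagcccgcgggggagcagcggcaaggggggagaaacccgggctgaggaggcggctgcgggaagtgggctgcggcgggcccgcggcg
Mbnl2, upstream start, chr15:103791938-103792237, plus strand: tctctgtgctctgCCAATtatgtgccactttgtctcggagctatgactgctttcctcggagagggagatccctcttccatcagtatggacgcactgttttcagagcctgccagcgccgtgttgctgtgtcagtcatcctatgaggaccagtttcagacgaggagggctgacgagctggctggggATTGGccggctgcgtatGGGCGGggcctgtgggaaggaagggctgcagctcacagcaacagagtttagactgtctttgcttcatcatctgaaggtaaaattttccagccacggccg
Mbnl2, downstream start, chr15:103822574-103822873, plus strand: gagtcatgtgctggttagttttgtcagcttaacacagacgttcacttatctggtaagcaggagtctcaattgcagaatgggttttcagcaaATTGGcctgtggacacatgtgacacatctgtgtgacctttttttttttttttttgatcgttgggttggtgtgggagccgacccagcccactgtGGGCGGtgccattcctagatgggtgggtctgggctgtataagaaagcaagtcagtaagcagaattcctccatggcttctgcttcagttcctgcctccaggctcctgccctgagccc
Srsf7 had 4 GC boxes and 1 ETS core, which overlaps the first of them, and Srsf9 had 1 GC box. The upstream start of Mbnl2 had 1 GC box and 2 CCAAT boxes, and the downstream start had 1 of each. The Srsf7 and Srsf9 windows held 26 and 33 CpG dinucleotides, the Mbnl2 windows 12 and 4.

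Promoters were listed for 47 of the 54 rat members, with 52 starts in all. Ptbp3 and Rbfox2, both called at 2-fold, had none listed. Hnrnpf, Hnrnpdl, Mbnl2 and Srsf10 had several starts. Each start was counted separately in the shares, for members and for all windows. A GC box was in 67.3% of these windows and in 33.1% of all 33469 windows of the table. A CCAAT box was in 55.8% against 37.5%, an ETS core in 21.2% against 8.75%, and an E-box in 13.5% against 6.42%. TATAAA was in 13.5% against 14.2%. The members' windows were also richer in CpG, with a median of 26 against 7, and in GC, with a median of 61.8% against 51.7%. The part of base composition in the motif shares was not tested. These are descriptions of sequence and do not show that any factor binds.

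Other splicing genes were also mostly higher in rat ES cells. Of 51 measured genes of the core spliceosome, 44 were higher in rat ES cells at an adjusted p under 0.05 (86.3%) and none lower. Among all genes at or above the median level, where most of this list lies, 48% were higher by that rule. At 2-fold, 1210 of those 7253 genes were called higher. In the core spliceosome list 9 passed that threshold (17.6%, against 10.6% of all genes), a share near that of genes at or above the median level. Eftud2, Bcas2 and Prpf4, of these 9, fell under 2-fold after quantile normalization. The U2 auxiliary factor gene U2af1, which recognises the 3′ splice site, led at 1.34 (10.27, 10.25 and 10.26 against 8.98, 8.92 and 8.88, limma adjusted p = 3.32e-07). Xab2, a component of the catalytic spliceosome, and the Sm-like gene Lsm2 both differed by 1.28. Of 9 kinases that phosphorylate SR proteins, 5 were higher and none lower, all under 2-fold, led by Clk2 (0.95) and Srpk1 (0.80). Those 55.6% are near the 48% of genes at or above the median level. Of 18 SR-related genes, 12 were higher (66.7%, against the same 48%), and Rsrp1 fell by 0.78. Luc7l (1.10) and the exon junction protein gene Rnps1 (1.02) were at 2-fold, 11.1% of the list against 10.6% of all genes called higher. After quantile normalization Luc7l was at 0.995 and Rnps1 at 0.936, so no SR-related gene reached 2-fold. Medians of these lists were 0.63, 0.36 and 0.44, against -0.00069 for all genes.

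The list of other splicing regulators held 1 gene with a larger change than any family member, Rbm47. Of 32 genes, 26 were higher at an adjusted p under 0.05 (81.25%) and none lower, with a median of 0.57. By that rule 30.9% of all genes were higher, and 48% of those at or above the median level. At 2-fold 7 of the list were called higher (21.9%), against 10.6% of all genes. Among the 7253 genes at or above the median level, 1210 were called higher at 2-fold. Rbm47 differed by 3.68 (7.78, 8.24 and 8.31 against 4.26, 4.52 and 4.52, limma adjusted p = 1.22e-07) and Rbpms2 by 2.34. The epithelial splicing regulators Esrp2 (1.81) and Esrp1 (1.76) were also higher. Esrp1 lay near or below the array medians in both groups, and Rbm47 and Esrp2 below them in fibroblasts. All 7 measured epithelial markers, Epcam and Cdh1 among them, were called higher too, with mean levels of 8.71 to 8.93 in rat ES cells and 4.96 to 5.09 in fibroblasts, and their part in these results was not tested.

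Mouse ES cells were set beside the rat cells by rank only, since the tables come from different platforms and were normalized separately. Each signal was turned into a percentile among the 12114 symbols found in both tables. Species, platform, probes and medium all differ between mouse and rat ES cells and cannot be told apart. The median percentile of the members was high in each group, at 91.4 in mouse ES cells, 85.9 in rat ES cells and 86.8 in rat fibroblasts. Some members ranked low in every group, down to Khdrbs2 at 14.6, 4.84 and 6.79 in the same order. In 34 of 50 members (68%) the mouse and rat ES means lay within 10 percentile points, against 55% of all shared symbols. Ranks near the top leave less room for a gap, and the part of level in this contrast was not tested. The mouse mean lay nearer to rat ES cells than to fibroblasts in 30 members (60%), close to the 57.1% of all shared symbols.

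**Figure D4:**
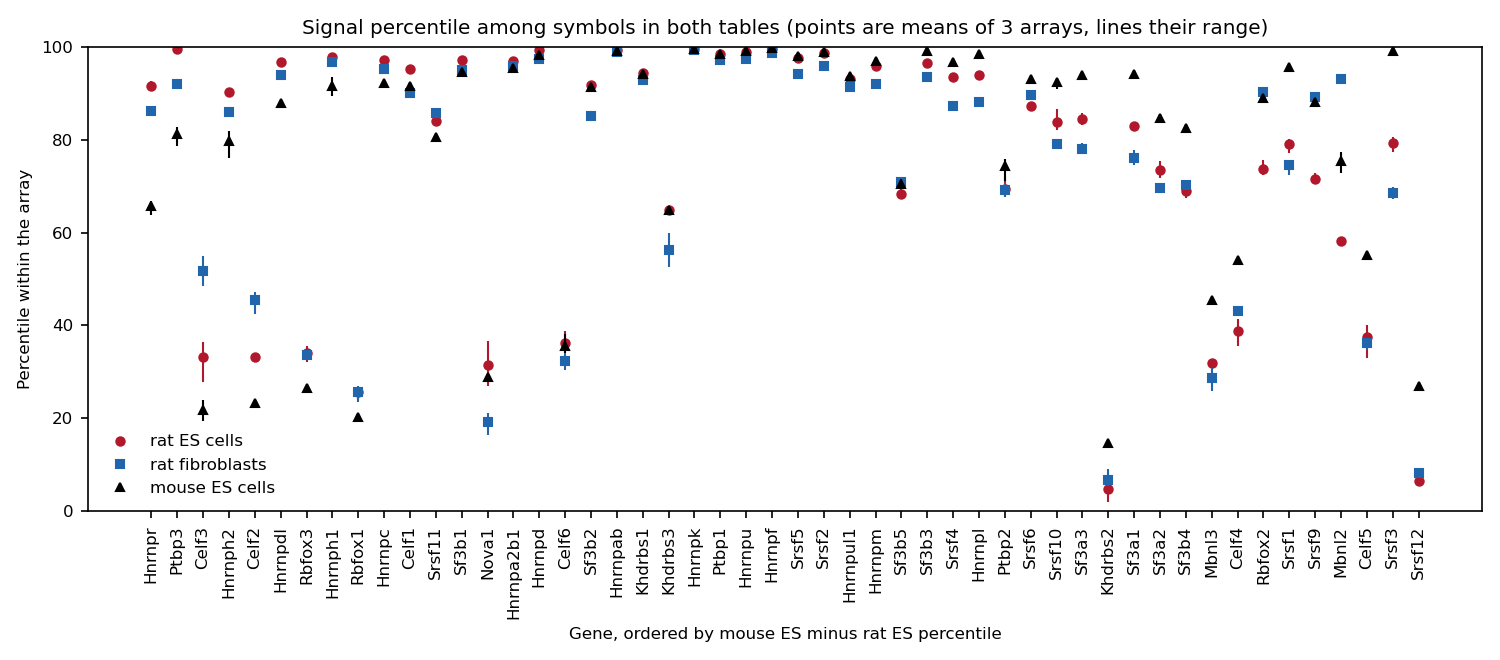
Percentile of the signal within the array for the 50 members in both tables, as means of 3 arrays with their range, for rat ES cells (red), rat fibroblasts (blue) and mouse ES cells (black), ordered by mouse ES minus rat ES. Hnrnpr at the left ranks 25.9 points lower in mouse ES than in rat ES cells, and Srsf3, second from the right, 19.7 points higher; the last gene, Srsf12, lies below the array medians in all groups, so its rank difference is not interpretable.

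Among the 6 shared members called at 2-fold in the rat, only Celf3 and Mbnl2 had a mouse ES rank nearer to rat ES cells, 33.3% against 66.5% of shared symbols called in the rat, and Celf3 lay below the array medians in both ES groups. Ptbp3 stood at percentile 81.2 in mouse ES cells (78.7 to 82.7 over arrays), whereas rat ES cells had it at 99.5 and fibroblasts at 92.1. Its rank in mouse ES cells was therefore below both rat groups. Rbfox2 ranked at 89.1 in mouse ES cells against 73.8 for rat ES cells and 90.2 for fibroblasts. Srsf9 stood at 88.3, 71.5 and 89.3 in the same order. Both genes thus ranked beside the rat fibroblasts in mouse ES cells. Mbnl2, at 75.4 in mouse ES cells, lay between rat ES cells (58.3) and fibroblasts (93.1), almost midway. Hnrnpd was above percentile 97 in all 3 groups, where 1 point separates few genes.

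The largest rank increases in mouse ES over rat ES cells were in Srsf12 (20.4 points), Srsf3 (19.7), Celf5 (17.9), Mbnl2 (17.1), Srsf9 (16.8) and Srsf1 (16.7). Srsf12 lay below the array medians in both species, so its difference is between weak signals of different probes and is not interpretable. Srsf3 stood at 99.0 in mouse ES cells, 79.3 in rat ES cells and 68.5 in fibroblasts, and Srsf1 at 95.8, 79.1 and 74.6. Mouse ranks of both lay above both rat groups. For Srsf3 this depends on the probe set taken: of 3 mouse probe sets the weakest read 6.25, 6.08 and 6.18, about the signal of Celf5, which stood at percentile 55.3. The largest decreases were in Hnrnpr (-25.9), Ptbp3 (-18.3), Celf3 (-11.4), Hnrnph2 (-10.5), Celf2 (-9.84) and Hnrnpdl (-8.96). Celf3 and Celf2 lay below the array medians in ES cells of both species, and their differences are not interpretable either. Hnrnpr stood at 65.8 in mouse ES cells against 91.7 and 86.2 in rat ES cells and fibroblasts, below both.

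Mouse values carry a limit of their own. Any pair of mouse arrays shared 16691 to 20845 identical values of 35557, against at most 30 of 29215 between rat replicates. Of the 56 mouse members, 13 had the same value on all 3 arrays, among them Ptbp1, Sf3b3, Srsf6, Celf4 and Mbnl1, so ranges over the mouse arrays understate their error. Members of the mouse table with no single-symbol rat row were Hnrnpa0, Hnrnpll, Hnrnpul2, Mbnl1, Nova2 and Sf3b6. Among all 19938 named mouse genes, Hnrnpul2 stood at percentile 97.5, Hnrnpa0 at 89.9, Hnrnpll at 75.5, Sf3b6 at 64.4, Nova2 at 62.3 and Mbnl1 at 56.4. The rat members with no single-symbol mouse row were Hnrnpa1, Hnrnpa3, Hnrnph3 and Srsf7.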

How the data were processed

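Total RNA was hybridized to 1-colour arrays as labelled single-stranded DNA, as the labels' protocols state. The deposited values are log2 signals, 1 per probe set, in a table of 6 rat arrays and a table of 3 mouse arrays. The log2 scale was read from the values. Background correction, normalization and probe summary: not given in the sources used here. These signals were used without further normalization or filter. Genes were named through the platform annotation: 15310 of 29215 rat and 21789 of 35557 mouse probe sets had 1 symbol, while 323 and 1621 carried several and 13582 and 12147 none. Gene IDs of all 54 rat members were in RefSeq's GRCr8 table under the same symbol.

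The rat comparison used limma 3.58.1 under R 4.3.3, with group as the only term in lmFit and eBayes, over all 14506 genes with Benjamini-Hochberg adjustment, after a check on simulated data. Members, lists and tests were chosen with earlier results of these data known. All members may be named, with array values for those called at 2-fold and the leading gene of each family. In other lists the 3 largest called changes in each direction are named. For mouse against rat ES cells, the 6 highest and 6 lowest rank differences are named. Genes added to these were picked after their values were seen. Replicate numbers did not pair the rat arrays: deviations of same-numbered arrays correlated at -0.016, 0.018 and -0.0060. The number of arrays limits the precision. Alternatives were another normalization, level filters, averaged probe sets, another variance model, other thresholds, the replicate block and leaving out each array.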

Additional observations from a re-analysis of the deposited data

How the results depend on the processing

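No member changed direction with an adjusted p under 0.05 under any of 15 alternatives for the rat comparison, and 7 of the 8 members called at 2-fold stayed called under every alternative that kept them. The exception was Hnrnpd, at 0.90 after quantile normalization. That normalization also changed the counts at an adjusted p under 0.05, from 35 members higher and 6 lower to 32 and 9. Among all genes it moved them from 4478 higher and 3694 lower to 4142 and 4045. The median log2 difference of the members went from 0.42 to 0.32, and that of all genes to -0.027. Celf3 is absent from the filter at the median level. A threshold of 0.58 on the log2 difference gave 19 members higher, 2854 genes higher and 2254 lower of all tested, and 48 other splicing genes higher and 1 lower. Other splicing genes called higher at 2-fold numbered 18 in the report, 13 after quantile normalization and 14 with the filter at the median level. The count of other splicing genes that passed the adjusted p and were lower, 1 in the report, was 5 after quantile normalization, 2 and 4 with the filters at the 25th percentile and median of level, 3 with trend and robust settings, 2 with the replicate block, and 1 to 2 when 1 array was left out. With the replicate number as a block, 4 members were called higher and 4 lower, as without it, and no other count of members moved; the samples share only a number. Percentile ranks from symbols with 3 different mouse values, an alternative chosen after seeing the data, put 52% of members nearer rat ES cells, and the other alternatives gave 54% to 66%. Levels near the array medians limit the size of every fold for low genes.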
